A study of Saccharomyces cerevisiae with 8 samples.

Results

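The genes described here encode the 2 coats that carry proteins between the endoplasmic reticulum (ER) and the Golgi of budding yeast, their cargo receptors, and the machinery that lets the vesicles dock and fuse. There are 36 of them among the 6596 gene models of the deposited count table. They were taken by gene name, which found 35, and ERV26 was found under its other name, SVP26, through the RefSeq synonyms. All 36 passed the filter on low counts that left 6558 models for testing.

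Poly(A) RNA was sequenced from 4 libraries of mcd1-1 cells and 4 libraries of wild-type (WT) cells, with letters A to D for the replicates of either genotype. The mutant carries the mcd1-1 allele of MCD1 (SCC1), whose product is the kleisin of cohesin, a ring that encircles DNA and keeps sister chromatids paired. Both groups came from a derivative of the W303-1a background, which is haploid and of the a mating type, and were in logarithmic growth in YPD, a rich glucose medium, 2 generations after dilution to an OD600 of 0.2, with all growth at 31 °C. The comparison asks how the level of each mRNA in mcd1-1 cells differs from that in WT cells under these conditions, and whether the libraries of a group came from separate cultures or clones is not stated in the labels.

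COPII is the coat of the vesicles that bud from the ER. The small GTPase Sar1 starts its assembly, an inner layer of Sec23 and Sec24 binds cargo and cargo receptors, and an outer cage of Sec13 and Sec31 bends the membrane. Released vesicles are caught by tethers under the control of the Rab GTPase Ypt1 and fuse through SNARE proteins, and COPI, a coat of 7 subunits also called coatomer, returns receptors and escaped ER proteins from the Golgi to the ER.

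Totals were 22331070 to 58506447 counts per library, and members took 0.659 to 0.828% of counts in the mcd1-1 libraries and 0.752 to 0.863% in the WT libraries. The lowest count of any member in any library was 712, so that none was near the floor of 3 counts. MCD1 itself stood at 312 ± 44.6 CPM in mcd1-1 and 80.3 ± 5.20 CPM in WT (SD, n = 4 each), where CPM is counts per 1e+06 counts after TMM scaling, a change of 1.96 on the log2 scale (edgeR adjusted p = 4.53e-05). For the cell-type markers, counts per 1e+06 were taken by library size without TMM scaling, and so are not on the scale of the other levels. On that basis the 6 genes that mark a cells summed to 830 to 1073 in mcd1-1 and 884 to 1040 in WT. The 4 that mark alpha cells summed to 118 to 178 in mcd1-1 and 31.4 to 41.4 in WT, with no marker at 0. The TMM factors, by which CPM is further divided, were 1.09 to 1.21 in mcd1-1 and 0.879 to 0.902 in WT. TMM scaling would therefore lower the mcd1-1 sums and raise the WT sums. The part that this difference in alpha-cell genes has in the results below was not tested. Libraries A and B of both groups stood apart from C and D. Deviations from the group means correlated at 0.452 to 0.636 between libraries with the same letter. Between other letters of the same set they correlated at 0.490 to 0.658, and across the 2 sets at -0.647 to -0.449. Nothing in the labels says what divides the sets, so values are given for each library and for each set. A lower level in bulk RNA may come from fewer cells with the transcript or less transcript per cell, and these cannot be told apart.

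Nearly all the changes that passed the test were downward in mcd1-1. By edgeR's quasi-likelihood test at an adjusted p under 0.05, 15 of the 36 fell and 1, SED5, rose, where over all models tested 19.7% were lower and 20.7% higher. The other 20 did not pass the test. The median log2 fold change of the members, mcd1-1 over WT, was -0.49, against -0.01 over all models, and 32 of the 36 had a negative value, or 26 when counts were scaled by library size alone. In 13 members every mcd1-1 library lay below every WT library, and in 1 member every one lay above, where 21% of all models lay below and 22.1% above. With the replicate letter as a block, 24 members were lower and the same 1 was higher, and the background was then 30.2% lower and 29.4% higher. The block treats same-letter libraries as pairs, though they were no more alike than other letters of the same set. Without 1 library the count of 15 lower members became 9 without WT A, 8 without WT B, 9 without mcd1-1 A and 6 without mcd1-1 B. The share of all models called lower in those fits is not given here. These fits also have fewer libraries than the main one. The counts therefore show only that the number of calls depends on which libraries are in the fit.

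Members were all abundant enough to lie above 32 CPM on average, and the direction of change over the whole table moved with abundance. Of the 5027 models at or above 32 CPM, 24.4% were lower and 12.6% higher, with a median log2 fold change of -0.14, while of the 1531 models below it 4.12% were lower and 47.4% higher, with a median of 0.62. The part of abundance in the members' values was not tested. Scaling also moved the counts: the log2 fold changes of all models shifted by 0.34 at the median with library size alone and by 0.14 with upper-quartile scaling. Relative to the median of all models, the members' median was -0.48 with TMM and -0.49 with either of the other scalings. A change of scaling moves all models by nearly the same amount, so this relative value could hardly differ and does not test the scaling. The share of all calls that were higher was 51.3% with TMM, 65.5% with upper-quartile scaling and 81.7% with library size alone. With library size alone 37.5% of all models were called higher and 8.39% lower, and only 3 of the 16 called members, ERV14, ERP1 and SED5, kept their calls, which these 3 also did under each of the 20 alternatives. The other calls lost in that way were those of SAR1, SEC13, ERV26, ERV41, EMP47, EMP24, ERV25, ERP2, ERP4, ERP6, BET1, SEC28 and RET3. Upper-quartile scaling kept 8 of the 16.

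**Figure D1:**
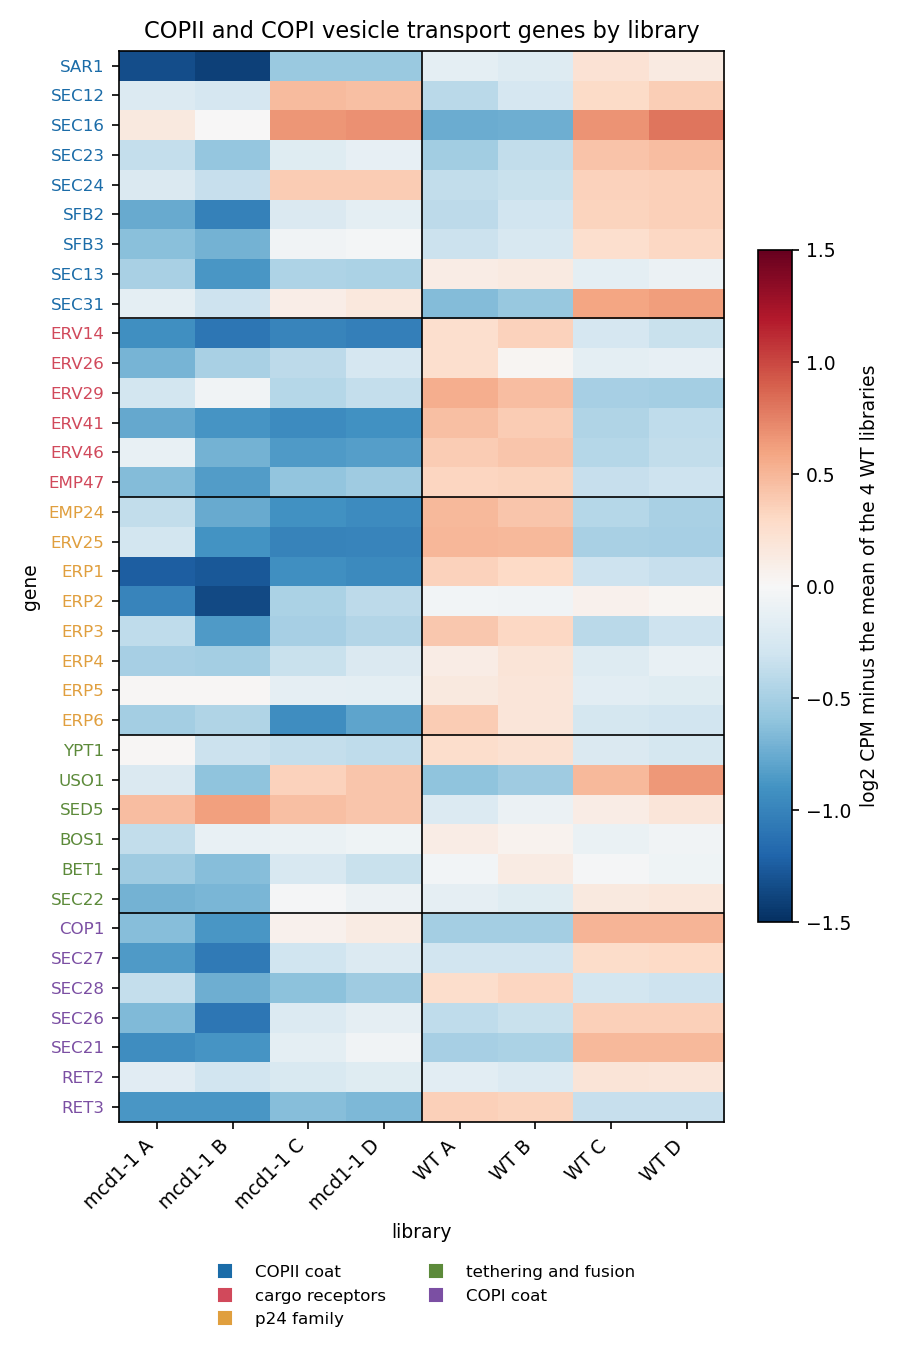
Level of each of the 36 genes (rows, coloured by role) in each library (columns), as log2 CPM minus the mean log2 CPM of the 4 WT libraries. The mcd1-1 columns are mostly blue, with SED5 red in all 4, and columns A and B differ from C and D in both groups.

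**Figure D2:**
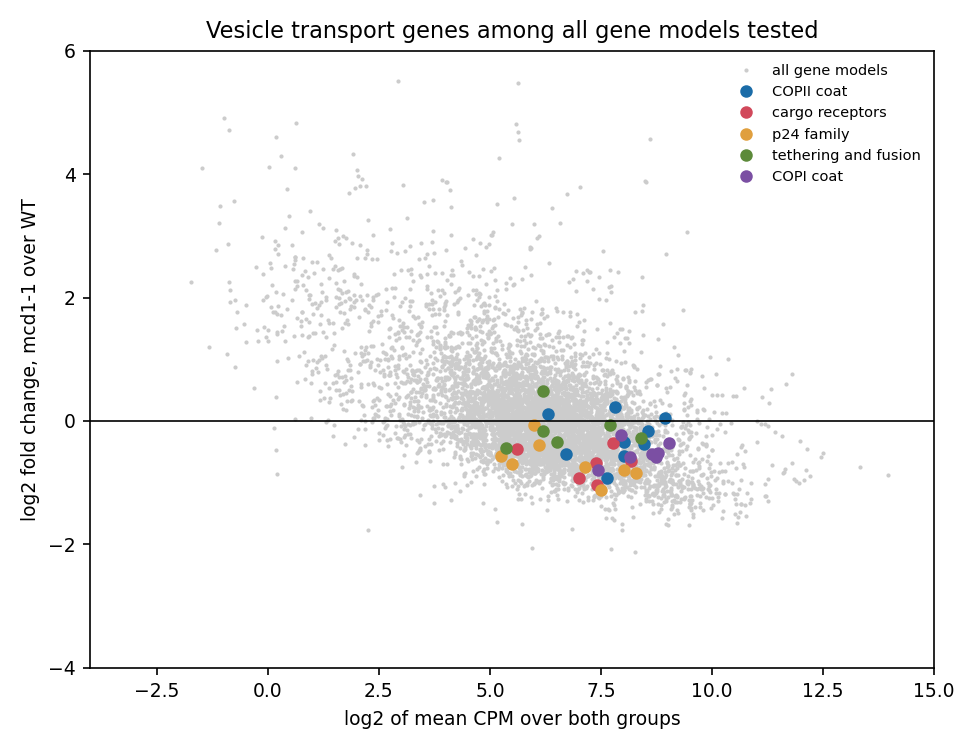
Log2 fold change, mcd1-1 over WT, against the log2 of mean CPM for all 6558 models tested (grey) and for the 36 genes (coloured by role). The 36 genes lie in the upper range of abundance, where the median of all models, -0.14 at or above 32 CPM, is itself below 0.

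Among the 9 genes of the COPII coat and its GTPase cycle, 2 fell in mcd1-1, 0 rose and 7 did not pass the test. That is 22.2% lower, near the 19.7% of all models, and with the replicate block 4, or 44.4%, were lower, against 30.2% of all models. SAR1 (YPL218W, chrXVI:138698-139409, build R64), which encodes the GTPase that recruits the coat, had 103, 98.5, 176 and 177 CPM in mcd1-1 A to D, against 234, 227, 301 and 285 CPM in WT A to D. All mcd1-1 libraries lay below all WT libraries, and within each group A and B were the lower pair. The log2 fold change of SAR1 was -0.92 ± 0.23 (SE; edgeR adjusted p = 0.0126). The call ended without mcd1-1 A or mcd1-1 B, at an adjusted p of 0.0508 to 0.0515, and over the 20 alternatives the adjusted p was 8.29e-06 to 0.0530. SEC13 (YLR208W, chrXII:559551-560444), whose product is an outer coat subunit that also belongs to the nuclear pore, had 222, 169.6, 226 and 224 CPM in mcd1-1 A to D, against 334, 339.9, 280.0 and 293 CPM in WT A to D. The groups did not overlap, and mcd1-1 B was the lowest library. For SEC13 the log2 fold change was -0.57 ± 0.15 (SE; edgeR adjusted p = 0.0153), and scaling by library size alone was the only one of the 20 alternatives to end the call (adjusted p 5.77e-04 to 0.189 over them).

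SEC16, SEC31 and SEC23 changed differently in the 2 library sets. SEC16, the scaffold of ER exit sites, had a log2 fold change of 0.22 ± 0.38 (SE), with 0.81 in libraries A and B alone and -0.03 in C and D alone. SEC31, the partner of SEC13 in the outer coat, had -0.16 ± 0.32, with 0.38 in A and B and -0.44 in C and D, so the direction differed between the sets. SEC23, which encodes the GTPase-activating inner subunit, had -0.37 ± 0.25, with -0.02 in A and B and -0.56 in C and D. An interaction of genotype and library set, a test chosen after the data were seen, passed for SEC16 (edgeR adjusted p = 0.00140), SEC31 (0.00238) and SEC23 (0.0157). SEC12, which encodes the exchange factor that loads Sar1 with GTP, had 0.12 ± 0.24 and did not pass the test (edgeR adjusted p = 0.724).

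SEC24 and its paralogs SFB2 and SFB3 encode alternative cargo-binding subunits that pair with Sec23. SEC24 had 407, 373, 617 and 619 CPM in mcd1-1 A to D, against 365, 376, 602 and 608 CPM in WT A to D, and its log2 fold change was 0.05 ± 0.26 (SE; edgeR adjusted p = 0.903). SFB2 had a log2 fold change of -0.53 ± 0.25 (SE; edgeR adjusted p = 0.123), or 0.00369 with the replicate block and 2.94e-05 to 0.527 over the 20 alternatives. For SFB3, also called LST1, it was -0.34 ± 0.23 (SE; edgeR adjusted p = 0.252), or 0.0196 with the block and 0.00109 to 0.960 over the alternatives. Neither paralog passed the main test, while both passed it with the block. Taken per coding length and as a share of the 3 genes together, a measure chosen after the data were seen that does not depend on the scaling of libraries, SEC24 made up 60.9, 61.0, 61.6 and 61.0% in mcd1-1 A to D, against 52.9, 52.1, 54.6 and 54.0% in WT A to D. The SEC24 share was higher in each mcd1-1 library than in any WT library, within A and B and within C and D alike. It averaged 61.1 ± 0.292% in mcd1-1 and 53.4 ± 1.11% in WT (SD, n = 4 each), a difference of 7.72 percentage points, 8.48 within A and B and 6.96 within C and D. SFB2 averaged 11.0 ± 0.487% in mcd1-1 and 14.4 ± 0.226% in WT, and SFB3 27.9 ± 0.512% in mcd1-1 and 32.2 ± 1.21% in WT. The 3 shares sum to 100% and are not independent, and since they were chosen with their values known they are given as a description, with no test. The proteins of SEC24 and SFB2 are 61.8% identical and those of SEC24 and SFB3 26.1%, and none of the 36 genes had a near-identical copy in the genome that could share its reads.

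**Figure D3:**
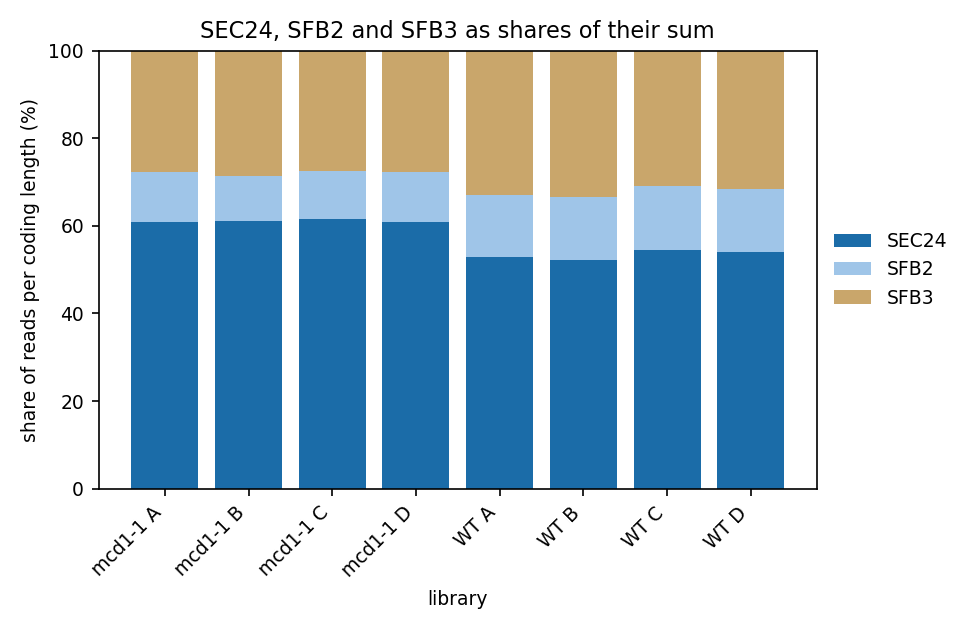
Share of SEC24, SFB2 and SFB3 in the sum of their reads per coding length (percent, stacked bars) in each library. SEC24 takes 60.9 to 61.6% in the 4 mcd1-1 libraries and 52.1 to 54.6% in the 4 WT libraries.

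The cargo receptors, which bridge cargo in the ER lumen or membrane to the COPII coat, included 4 of 6 genes that fell in mcd1-1 (66.7%, against 19.7% of all models), 0 that rose and 2 that did not pass the test. All 6 had negative log2 fold changes, with a median of -0.67, and also when scaled by library size alone, with a median of -0.33. Their summed level was 881, 776, 734 and 755 CPM in mcd1-1 A to D, against 1585, 1577, 931 and 940.3 CPM in WT A to D. ERV14 (YGL054C, chrVII:400871-401287), the receptor of many membrane proteins bound for the plasma membrane, had 118, 105, 112 and 109 CPM in mcd1-1 A to D, against 266, 282, 187 and 176 CPM in WT A to D. All 4 mcd1-1 libraries were within a narrow range below all WT libraries, of which A and B were the higher pair. The log2 fold change of ERV14 was -1.04 ± 0.18 (SE; edgeR adjusted p = 0.00221), a level 0.488 times that of WT. ERV41 (YML067C, chrXIII:139063-140214) had 95.7, 88.4, 84.6 and 86.7 CPM in mcd1-1 A to D, against 222, 211, 119 and 125 CPM in WT A to D, with no overlap between the groups. Erv41 forms a complex with Erv46 that retrieves escaped ER proteins, and the change of ERV41 was -0.93 ± 0.22 (SE; edgeR adjusted p = 0.00950) on the log2 scale (3.59e-05 to 0.0518 over the 20 alternatives, above 0.05 only with library size alone). ERV46 (YAL042W, chrI:61316-62563) had 314, 206, 188 and 191 CPM in mcd1-1 A to D, against 440.3, 452, 252 and 262 CPM in WT A to D. Library mcd1-1 A lay among the WT libraries, and the log2 fold change of ERV46 was -0.65 ± 0.26 (SE; edgeR adjusted p = 0.0758). With the replicate block its adjusted p was 0.00975, without WT C or mcd1-1 A it was 0.0375 to 0.0486, and over the 20 alternatives it was 9.33e-05 to 0.345. The model YAL042C-A overlaps ERV46 over 293 bases, and no source used here gives the strand setting of the counting, so reads of the 2 models cannot be told apart.

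EMP47 (YFL048C, chrVI:38843-40180), which encodes a lectin-type receptor of glycoproteins, had 128, 113, 134 and 139 CPM in mcd1-1 A to D, against 251, 254, 159 and 163 CPM in WT A to D. The groups did not overlap, though the gap was narrow between the C and D libraries. EMP47 changed by -0.68 ± 0.19 (SE; edgeR adjusted p = 0.0201) on the log2 scale, with -1.07 in A and B and -0.20 in C and D (interaction, edgeR adjusted p = 0.00146). The call ended without WT A, WT B, mcd1-1 A or mcd1-1 B, at an adjusted p of 0.0531 to 0.0677 (1.21e-04 to 0.156 over the 20 alternatives). ERV26 (YHR181W, chrVIII:467228-467914), whose product carries type II membrane proteins such as Golgi glycosyltransferases, had 34.6, 40.0, 42.8 and 47.1 CPM in mcd1-1 A to D, against 66.8, 57.2, 50.8 and 51.6 CPM in WT A to D. The groups did not overlap, and the log2 fold change was -0.46 ± 0.14 (SE; edgeR adjusted p = 0.0290). It was -0.73 in A and B and -0.15 in C and D (interaction, edgeR adjusted p = 0.0218), and in C and D alone ERV26 did not pass the test (edgeR adjusted p = 0.0641). The call ended without WT A, WT B, mcd1-1 A, mcd1-1 B or mcd1-1 C, at 0.0636 to 0.0940, and over the alternatives the adjusted p was 0.00133 to 0.542. ERV29, which encodes the receptor of soluble cargo such as the alpha-factor precursor, had 191, 223, 173 and 182 CPM in mcd1-1 A to D, against 339, 319.5, 164 and 162 CPM in WT A to D. The groups overlapped, and the sets went opposite ways, with a log2 fold change of -0.67 in A and B and 0.16 in C and D (interaction, edgeR adjusted p = 0.00303).

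The p24 proteins are small membrane proteins that cycle between the ER and the Golgi in heteromeric complexes, help load lipid-anchored proteins into COPII vesicles and bind coat subunits through their cytosolic tails. Of the 8 p24 genes, 6 fell in mcd1-1 (75%, against 19.7% of all models), 0 rose and 2 did not pass the test, with a median log2 fold change of -0.72, or -0.38 with library size alone. Summed over the family, the level was 938, 742, 793 and 804 CPM in mcd1-1 A to D, against 1735, 1698, 1089 and 1075 CPM in WT A to D. ERP1 (YAR002C-A, chrI:154065-154724), which encodes a subunit of the core complex with Emp24, Erv25 and Erp2, had 103, 101, 129 and 126 CPM in mcd1-1 A to D, against 309, 299.9, 197 and 192 CPM in WT A to D. Every mcd1-1 library lay below every WT library, and the WT libraries A and B were the highest. At -1.12 ± 0.20 (SE; edgeR adjusted p = 0.00265), ERP1 had the most negative log2 fold change of the 36 genes, a level 0.459 times that of WT. Its values were -1.58 in A and B and -0.57 in C and D (interaction, edgeR adjusted p = 7.19e-04). ERP2 (YAL007C, chrI:137698-138345) had 89.5, 69.9, 129 and 135 CPM in mcd1-1 A to D, against 172, 172, 186 and 182 CPM in WT A to D. The groups did not overlap, and mcd1-1 B was the lowest. The log2 fold change of ERP2 was -0.75 ± 0.21 (SE; edgeR adjusted p = 0.0185), and the call ended without mcd1-1 A or mcd1-1 B, at 0.0501 to 0.0745 (5.56e-05 to 0.101 over the 20 alternatives).

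EMP24 (YGL200C, chrVII:122694-123305) had 242, 184, 166 and 163 CPM in mcd1-1 A to D, against 438, 418, 233 and 224 CPM in WT A to D. Its partner ERV25 (YML012W, chrXIII:246116-246751) had 311, 202, 189 and 190.0 CPM in mcd1-1 A to D, against 531, 529.6, 268 and 267 CPM in WT A to D. In both genes mcd1-1 A lay above the C and D libraries of WT, so that the groups overlapped. Within each letter the mcd1-1 library was the lower one. The log2 fold change was -0.80 ± 0.26 (SE; edgeR adjusted p = 0.0370) for EMP24 and -0.84 ± 0.29 (SE; edgeR adjusted p = 0.0465) for ERV25. Both calls ended without either of WT A and WT B or any one of mcd1-1 B, C and D, at 0.0901 to 0.0964 for EMP24 and 0.108 to 0.119 for ERV25. Over the 20 alternatives the adjusted p was 7.35e-05 to 0.174 for EMP24 and 3.91e-05 to 0.177 for ERV25. Per kilobase of coding sequence these 2 core subunits were the most abundant p24 mRNAs, ERV25 at 351 ± 93.1 CPM per kb in mcd1-1 and 627 ± 238 CPM per kb in WT and EMP24 at 309 ± 59.8 CPM per kb in mcd1-1 and 536 ± 188 CPM per kb in WT (mean ± SD, n = 4 each), where ERP3 was the least at 44.8 ± 6.16 CPM per kb in mcd1-1 and 66.8 ± 19.0 CPM per kb in WT.

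ERP6 (YGL002W, chrVII:494517-495167) had 38.1, 39.7, 28.5 and 31.4 CPM in mcd1-1 A to D, against 70.7, 61.5, 45.2 and 44.6 CPM in WT A to D. The groups did not overlap, and its log2 fold change was -0.69 ± 0.19 (SE; edgeR adjusted p = 0.0170) (1.25e-04 to 0.189 over the 20 alternatives, lost with upper-quartile scaling and library size alone). ERP4 (YOR016C, chrXV:360461-361084) had 55.0, 54.8, 61.9 and 66.9 CPM in mcd1-1 A to D, against 84.1, 89.1, 67.8 and 72.1 CPM in WT A to D, with the highest mcd1-1 library just below the lowest WT library. Its log2 fold change was -0.39 ± 0.13 (SE; edgeR adjusted p = 0.0413), -0.66 in A and B and -0.08 in C and D. The call ended without WT A, WT B or any one of the 4 mcd1-1 libraries, at 0.0551 to 0.138, and over the alternatives its adjusted p was 5.62e-04 to 0.766. ERP3 had a log2 fold change of -0.57 ± 0.21 (SE; edgeR adjusted p = 0.0552), which became 0.0470 with the replicate block, 0.0281 to 0.0365 without WT C or WT D, and 0.00100 to 0.358 over the alternatives. ERP5 had 65.8, 66.2, 59.3 and 59.2 CPM in mcd1-1 A to D, against 72.4, 74.0, 58.6 and 57.8 CPM in WT A to D, and its log2 fold change was -0.07 ± 0.13 (SE; edgeR adjusted p = 0.694). The p24 genes differ among themselves in relatedness as in level: the proteins of ERP2 and ERP4 are 71.0% identical, those of ERP1 and ERP6 54.6%, of ERP5 and ERP6 41.4% and of ERP1 and ERP5 37.6%.

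Coding ends are shown for the receptors and p24 genes because a pair of lysines near the end of a cytosolic tail is the signal by which COPI returns a membrane protein to the ER. The signal, written KKXX or KXKXX, ends 2 residues before the end of the protein. The last 33 coding bases, the stop codon included, are from the RefSeq R64 genome, 5′ to 3′ on the coding strand, with capitals for lysine codons at the positions that the signal can take. The first 6 hold the dilysine signal, and ERP2 and ERP4, close relatives of each other, hold 1 such lysine codon. ERV25 and ERP3, whose ends are not shown, also hold 1.
ERV29, chrVII:1060658-1060690, minus strand: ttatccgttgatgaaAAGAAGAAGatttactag
ERV46, chrI:62531-62563, plus strand: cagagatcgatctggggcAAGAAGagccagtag
EMP47, chrVI:38843-38875, minus strand: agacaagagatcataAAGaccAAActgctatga
ERP1, chrI:154065-154097, minus strand: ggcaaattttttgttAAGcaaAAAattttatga
ERP5, chrVIII:332888-332920, plus strand: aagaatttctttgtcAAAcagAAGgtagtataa
ERP6, chrVII:495135-495167, plus strand: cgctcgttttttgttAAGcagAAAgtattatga
ERP2, chrI:137698-137730, minus strand: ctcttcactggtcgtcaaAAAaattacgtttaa
ERP4, chrXV:360461-360493, minus strand: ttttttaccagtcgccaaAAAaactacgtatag

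Of the 14 receptor and p24 genes 6, or 42.9%, ended in this signal, against 2.78% of 6008 nuclear coding sequences. Of the 6 genes with the signal 3 fell in mcd1-1, with a median log2 fold change of -0.67, and of the 8 without it 7 fell, with a median of -0.77. Over all models 19.7% were lower, and the part of the signal in these values was not tested.

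Tethering and fusion held the one gene that rose. SED5 (YLR026C, chrXII:195450-196472), which encodes the Golgi SNARE that vesicles from the ER fuse with, had 84.0, 93.3, 83.6 and 81.6 CPM in mcd1-1 A to D, against 52.8, 57.5, 65.9 and 69.5 CPM in WT A to D. The mcd1-1 libraries were all higher than any WT library, with mcd1-1 B the highest. SED5 changed by 0.48 ± 0.12 (SE; edgeR adjusted p = 0.0139) on the log2 scale, a level 1.39 times that of WT, with 0.68 in A and B and 0.32 in C and D. BET1 (YIL004C, chrIX:347946-348505), one of the 3 SNAREs on the vesicle side, fell, with 32.7, 30.4, 39.9 and 37.5 CPM in mcd1-1 A to D, against 46.0, 51.4, 46.6 and 45.3 CPM in WT A to D. The groups did not overlap. For BET1 the log2 fold change was -0.43 ± 0.13 (SE; edgeR adjusted p = 0.0226), and the call ended without WT B, mcd1-1 A, mcd1-1 B or mcd1-1 D, at 0.0565 to 0.0918 (0.00262 to 0.558 over the 20 alternatives). The other vesicle SNAREs were BOS1, at -0.16 ± 0.12 (SE; edgeR adjusted p = 0.300), and SEC22, at -0.35 ± 0.19 (SE; edgeR adjusted p = 0.177), which became 0.0202 with the replicate block and 0.00130 to 0.948 over the alternatives. YPT1, the Rab GTPase of this step, was the most abundant member per coding length in mcd1-1, at 492 ± 67.8 CPM per kb in mcd1-1 and 593 ± 115 CPM per kb in WT (mean ± SD, n = 4 each), and its log2 fold change was -0.27 ± 0.18 (SE; edgeR adjusted p = 0.259). USO1, which encodes the long coiled-coil tether, was among the least abundant at 38.2 ± 12.1 CPM per kb in mcd1-1 and 40.1 ± 17.6 CPM per kb in WT, with a log2 fold change of -0.07 ± 0.34 (SE; edgeR adjusted p = 0.894). Over the 6 genes the median log2 fold change was -0.21 with TMM and 0.13 with library size alone, so the group as a whole had no direction that held across scalings. Of the 6, 1 fell (16.7%, against 19.7% of all models), and with the replicate block 2 were lower (33.3%, against 30.2%).

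The COPI coat has an inner and an outer layer, and all 7 subunit genes had a negative log2 fold change, in all libraries and in each set alone, with a median of -0.53, although RET2 turned positive when scaled by library size alone. Of the 7, 2 fell in mcd1-1 (28.6%, against 19.7% of all models), 0 rose and 5 did not pass the test, and with the replicate block 6 were lower (85.7%, against 30.2%). RET3 (YPL010W, chrXVI:535018-535587), the zeta subunit, had 117, 118, 138 and 135 CPM in mcd1-1 A to D, against 276, 269.9, 169 and 168 CPM in WT A to D. The mcd1-1 libraries lay below all WT libraries, and WT A and B were far above WT C and D. The change of RET3 was -0.80 ± 0.20 (SE; edgeR adjusted p = 0.0121) on the log2 scale, -1.22 in A and B and -0.27 in C and D (interaction, edgeR adjusted p = 7.72e-04), and over the 20 alternatives the adjusted p was 5.46e-05 to 0.0811. SEC28 (YIL076W, chrIX:216658-217548), the epsilon subunit, had 260.2, 201, 219 and 231 CPM in mcd1-1 A to D, against 402, 419, 276 and 269 CPM in WT A to D. The groups did not overlap, and mcd1-1 A came closest to WT. Its log2 fold change was -0.58 ± 0.19 (SE; edgeR adjusted p = 0.0357), and the call ended without WT A, WT B or any one of the 4 mcd1-1 libraries, at 0.0533 to 0.0990 (0.00192 to 0.291 over the alternatives).

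The 4 large COPI subunits followed another pattern over the libraries. SEC27, the beta-prime subunit, had 278, 240.0, 407 and 437 CPM in mcd1-1 A to D, against 410.5, 411, 609.6 and 619 CPM in WT A to D. In it, as in the other 3, the C and D libraries were the higher pair in both groups, and mcd1-1 was lower within each letter. The log2 fold changes were -0.59 ± 0.25 for SEC27, -0.52 ± 0.27 for SEC26 (beta), -0.53 ± 0.32 for SEC21 (gamma) and -0.36 ± 0.33 for COP1 (alpha), with SE. None passed the main test in edgeR, at adjusted p of 0.0830 for SEC27, 0.152 for SEC26, 0.206 for SEC21 and 0.415 for COP1. With the replicate block the adjusted p was 0.00362 for SEC27, 0.00975 for SEC26, 0.00692 for SEC21 and 0.0462 for COP1. Over the 20 alternatives it was 8.81e-05 to 0.386 for SEC27, 8.28e-05 to 0.565 for SEC26, 5.11e-05 to 0.622 for SEC21 and 5.03e-04 to 0.946 for COP1. RET2, the delta subunit, had -0.23 ± 0.14 (SE; edgeR adjusted p = 0.233). The summed level of the coat was 1802, 1559, 2413 and 2526 CPM in mcd1-1 A to D, against 2419, 2439, 3420 and 3425 CPM in WT A to D.

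**Figure D4:**
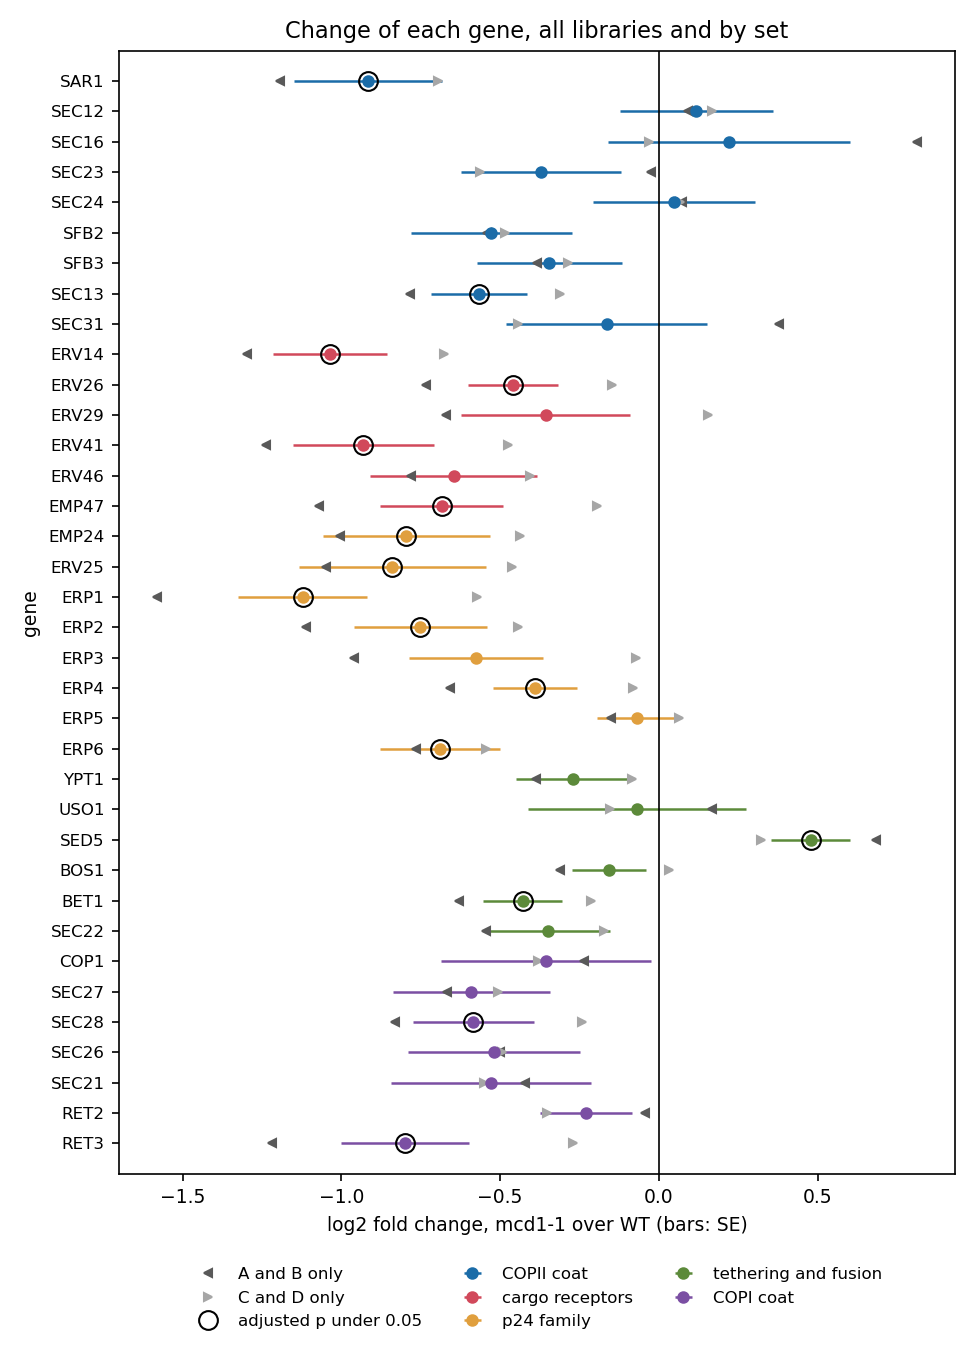
Log2 fold change, mcd1-1 over WT, of each of the 36 genes over all 8 libraries (coloured points with SE bars), in libraries A and B alone (dark triangles) and in C and D alone (light triangles), with rings around genes at an edgeR adjusted p under 0.05. In the receptors and p24 genes the A and B triangles lie left of the C and D triangles. They lie right of them in SEC16, SEC23, SEC31, SED5, USO1, COP1, SEC21 and RET2, and nearly coincide with them in SEC24 and SEC26.

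Between the library sets, the size of the change differed for many members. The interaction of genotype and library set passed for 20 of the 36 (edgeR adjusted p under 0.05), where it passed for 36.7% of all models. In 15 of the 20 the log2 fold change was the more negative one in A and B, and the other 5 were SEC16, SEC23, SEC31, SED5 and RET2. The median over the 36 was -0.64 in A and B and -0.30 in C and D, and 30 members were negative in each. By role, the medians were -0.02 in A and B and -0.31 in C and D for the COPII coat, -0.93 in A and B and -0.30 in C and D for the cargo receptors, and -0.98 in A and B and -0.44 in C and D for the p24 family. They were -0.35 in A and B and -0.12 in C and D for tethering and fusion, and -0.50 in A and B and -0.38 in C and D for the COPI coat.

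The level difference between the sets went with coding length. Across the 36 members, log2 CPM in C and D minus that in A and B had a Spearman's rho of 0.69 with coding length, and 0.50 across all 6558 models, where genes of one library share its depth and preparation and are not independent. All 11 members of at least 2000 bases were higher in C and D, by 0.60 to 1.04 (median 0.71), and 18 of the 25 shorter ones, or 72%, were lower, with a median of -0.23. Over all models, of the 1278 of at least 2000 bases 12.2% were lower in C and D, with a median of 0.47, and of the 5280 shorter ones 61.7%, with a median of -0.14. These 11 are SEC16, SEC23, SEC24, SFB2, SFB3, SEC31, USO1, COP1, SEC27, SEC26 and SEC21. Among these 11 the test called 0 lower by edgeR's adjusted p, 1 at an unadjusted p under 0.05, 1 by DESeq2 and 0 by limma-voom, while with the replicate block 6 were lower. Among the 25 shorter genes 15, or 60%, were called lower, and 18 with the block. With the block 30.2% of models of any length were lower. The shares of long and of short models under the block are not given here, so the block counts have no background by length. Over all models in the main fit, too, fewer long ones were called lower in mcd1-1, 5.95% of those of at least 2000 bases against 23.0% of the shorter ones. The median SE of the log2 fold change was 0.27 in the long genes and 0.19 in the short ones. In A and B the log2 fold change itself went with length across members (rho 0.62, against 0.11 over 6572 models), and in C and D it did not (rho 0.04, against -0.02 over 6564 models). What divides the sets is not in the labels, and its part in the calls was not tested.

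**Figure D5:**
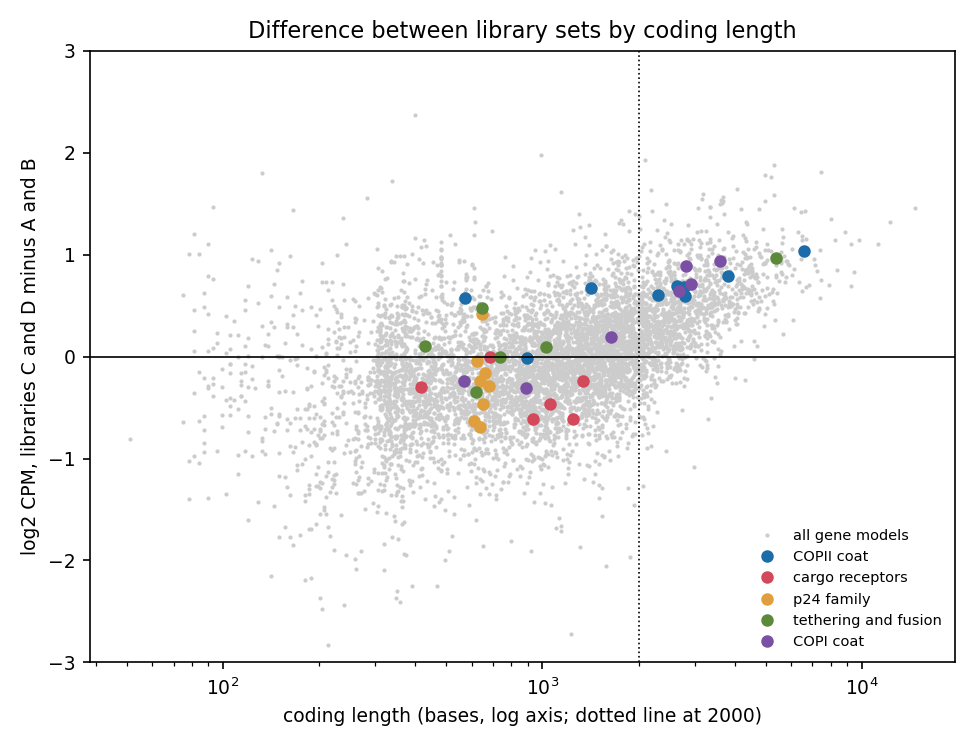
Log2 CPM in libraries C and D minus that in A and B (both groups together) against coding length in bases (log axis) for all models tested (grey) and the 36 genes (coloured by role). The 11 genes right of the dotted line at 2000 bases all lie above 0, between 0.60 and 1.04.

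The bases upstream of the start codons were searched for 10 motifs of transcription factors and promoter elements, on both strands of the 250 bases before the start codon. TTACCCG, the core that the general regulatory factor Reb1 binds, was present upstream of 9 of the 36 members, or 25%, against 7.03% of 6007 genes. The 9 were SAR1, SFB2, SEC13, ERV29, EMP24, ERP6, SEC27, RET2 and RET3. Of these 5 fell in mcd1-1, with a median log2 fold change of -0.59, and of the 27 others 10 fell, with a median of -0.39. Over all models 19.7% were lower. SFB2, ERV29, SEC27 and RET2 carry the motif and did not pass the test. The part of the motif in these values was not tested. Windows of 27 bases are shown for the 5 that fell, from the RefSeq R64 genome, 5′ to 3′ on the gene's strand, with the motif, or its reverse complement CGGGTAA, in capitals.
SAR1, chrXVI:138501-138527, plus strand: tacgcccgcaTTACCCGacaactccgt
SEC13, chrXII:559331-559357, plus strand: cacccacgcaTTACCCGaaagttttca
EMP24, chrVII:123470-123496, minus strand: atcatcactcCGGGTAAtccaattttc
ERP6, chrVII:494364-494390, plus strand: actcgttcttCGGGTAAgaaaccaata
RET3, chrXVI:534844-534870, plus strand: catcgcgagcTTACCCGtttcgccact

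In these the motif ended 181 bases before the start codon of SAR1, 204 before that of SEC13, 175 before that of EMP24, 137 before that of ERP6 and 158 before that of RET3. CAGCGTG, which Hac1 of the unfolded protein response binds, was found only upstream of SEC31 among the members, against 0.999% of all genes. CCCCT, the stress response element of Msn2 and Msn4, was upstream of 6 members, or 16.7%, against 18.8% of all genes, and overlap between motifs was not removed. The heat shock element TTCNNGAA was upstream of 4, or 11.1%, against 11.1%. ACGCGT, the Mbp1 motif, was upstream of SAR1, ERV25, ERP3 and ERP5, or 11.1%, against 2.897%. CACCCA of Rap1 was upstream of 3 members (8.33%, against 5.71%), the PAC element GATGAG of 5 (13.9%, against 17.0%) and the RRPE element AAAATTTT of 1 (2.78%, against 8.66%). The Rpn4 motif GGTGGCAAA was upstream of 0 of the 36, against 1.13%, and the Gcn4 motif TGACTC of 0, against 6.24%.

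The rest of the early secretory pathway was read from a list of 54 other genes, among them the TRAPP and COG tethering complexes, the Dsl1 complex, further SNAREs and the ARF GTPases with their regulators. Of the 54, 13 fell in mcd1-1, 0 rose and 41 did not pass the test in edgeR, with a median log2 fold change of -0.26. The share that fell, 24.1%, was near the 19.7% of all models and the 24.4% of models at or above 32 CPM. At an unadjusted p under 0.05, 2 were higher, and 0 were by DESeq2 or limma-voom. With the replicate block 26, or 48.1%, were lower, against 30.2% of all models, and 3 were higher, these being EMP46, TRS85 and SED4, named after their values were seen. The 3 of smallest p were BET5, GCS1 and COG7, which kept their calls in all 20 alternatives. BET5, a subunit of the TRAPP complexes that activate Ypt1, had 32.9, 28.5, 35.8 and 37.5 CPM in mcd1-1 A to D, against 63.0, 59.9, 57.7 and 57.0 CPM in WT A to D. All mcd1-1 libraries lay below all WT libraries, and the log2 fold change was -0.82 ± 0.12 (SE; edgeR adjusted p = 0.00111). GCS1, an ARF GTPase-activating protein that acts in COPI transport, had 85.3, 68.2, 95.2 and 103 CPM in mcd1-1 A to D, against 193, 195, 159 and 159 CPM in WT A to D. The groups did not overlap, and the log2 fold change was -1.005 ± 0.16 (SE; edgeR adjusted p = 0.00164). COG7, of the COG complex that tethers vesicles within the Golgi, had 44.8, 42.0, 54.7 and 53.9 CPM in mcd1-1 A to D, against 91.1, 87.4, 80.5 and 78.9 CPM in WT A to D, again without overlap, and a log2 fold change of -0.79 ± 0.13 (SE; edgeR adjusted p = 0.00165).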

How the data were processed

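Poly(A) RNA of 4 mcd1-1 and 4 WT samples was sequenced from NEBNext Ultra libraries, per the labels. Unnormalised counts per gene were deposited by the authors, whose processing notes list, with no settings, featureCounts 1.6.0 for build R64, the aligner STAR 2.5.3a, Picard, Trim Galore 0.4.3 and bcl2fastq 2.9. No source used here gives the strand setting or the treatment of multiply mapped reads; 4 emptied lines of the table were not analysed here, and 0 sample columns went unused.

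Models were filtered with filterByExpr, scaled by TMM and tested with edgeR 4.0.16 (quasi-likelihood F test, 2-sided, group only, Benjamini-Hochberg over 6558 models, threshold 0.05, common biological coefficient of variation 0.253). P-values measure the spread between libraries, which may be technical. The members and lists were chosen with earlier results of these data known. Values per library are given for members that passed the test, for ERV46, ERV29, ERP5, SEC24 and SEC27, chosen after their values were seen, and for the 3 called genes of smallest p in each direction of the other list. Levels per kb divide CPM by coding length. RefSeq (R64) gave the same coordinates for all 36 members, and blastn 2.17.0 found 0 near-identical copies (at least 90% over at least 100 bases). Protein identities came from translations aligned in Biopython 1.88.

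Alternatives were DESeq2 1.42.0, limma-voom (limma 3.58.1), scaling by library size alone, by upper quartile, by RLE or by TMM from which ribosomal protein genes were left out, no filter, a filter of 10 CPM in 4 libraries, the replicate letter or the library set as a block, each set alone, and leaving out each library. The interaction term and the SEC24 share were added after the data were seen. Same-letter libraries correlated at 0.452 to 0.636 in their deviations from the group means, above 0.1 in every pair, and the letter was used as a block. Other letters of the same set correlated at 0.490 to 0.658, so pairing by letter could not be told apart from division by set. Chi-square over its degrees of freedom was 11.8 to 101 between libraries of a group within a set and 315 to 540 across sets, more than sampling noise, so each library was counted as 1 replicate. The SE and SD values include the spread between libraries. The floor covers counting error only, and 3 counts were 0.0513 to 0.134 per 1e+06 counts by library size, without TMM scaling.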

Additional observations from a re-analysis of the deposited data

Results flagged for a closer look

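In 5 of 72 sets of 4 libraries tested, 36 genes in each group, 1 library lay farther from the rest than Dixon's 95% limit for the gap over the range. Chance marks about 1 in 20 sets of independent values. That rate does not apply strictly here, since A and B stood apart from C and D. Where the libraries form separate pairs, no single one can be flagged. All 5 were mcd1-1 libraries. SEC13 stood at 170 CPM in mcd1-1 B, the lowest of its group. Library mcd1-1 A was the highest of its group for ERV46 at 314 CPM, ERV25 at 311 CPM and YPT1 at 369 CPM, and the lowest for BOS1 at 59.6 CPM. In YPT1, ERV46 and ERV25 mcd1-1 A also lay above WT C and D. SEC13 kept its call without mcd1-1 B, and ERV25 kept its call without mcd1-1 A.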

How the results depend on the processing

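The 3 members ERV14, ERP1 and SED5 kept their direction and their call in all 20 alternatives. The count of 15 lower members became 7 with upper-quartile scaling, 2 with library size alone, 24 with the replicate block, 24 with the library set as a block, 25 in A and B only, 24 in C and D only, and 6 to 17 when 1 library was left out. Over all models, 19.7% were lower in the main fit, 30.2% with the replicate block and 8.39% with library size alone. For the other alternatives the share over all models is not given here. Counts under those show dependence on the processing and are not a result about these genes. The 1 higher member became 3 in A and B only and 3 in C and D only. The replicate block ended no call among the members. The members' median of -0.49 became -0.16 with library size alone. Reversed directions were 0.38 for SEC31 in A and B only (edgeR adjusted p = 0.0344) and 0.16 for ERV29 in C and D only (edgeR adjusted p = 0.0154). For the 54 other genes, the 13 lower became 21 with DESeq2, 6 with library size alone, 26 with the replicate block, 33 with the set block, 28 in A and B only and 25 in C and D only. Their 0 higher became 3 with upper-quartile scaling, 10 with library size alone, 3 with the replicate block, 6 with the set block, 3 in A and B only, 11 in C and D only and 0 to 1 when 1 library was left out. Over all models, 20.7% were higher in the main fit, 29.4% with the replicate block and 37.5% with library size alone. For these genes, too, the share over all models is not given for the other alternatives. The cause of these shifts in the counts was not tested. Depth limits no member, the lowest count being 712; the letter cannot be told apart from the set.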
